A study of Mus musculus with 9 samples.

Results

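The comparison sets the 3 arrays labelled CBFb_KD against the 3 labelled Ring1b_KD, 6 of the 9 arrays of the series, chosen by their labels alone. The 3 Control arrays take no part in the tests and are given as levels beside them. The cells were L8057, a mouse megakaryocytic leukaemia line, infected with lentivirus. CBFb_KD cells received a short hairpin RNA (shRNA) against CBFb, Ring1b_KD cells an shRNA against Ring1b, and Control cells the empty vector. All groups shared the remaining treatment. Puromycin, which kills uninfected cells, was added 48 h after infection together with 50 nM of the phorbol ester TPA, which drives these cells to mature, and cells were harvested 72 h after that, following 3 days in TPA. The 3 arrays of a group are given as biological triplicates. Whether these were separate infections, and how many hairpins served each gene, is not said, so each p-value reflects no more than the array-to-array spread, which may be technical in part.

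CBFb is the subunit of the core binding factor that does not touch DNA itself. It pairs with a RUNX protein and strengthens its hold on DNA, and in megakaryocytes, the cells that shed platelets, RUNX1 with CBFb is needed for maturation. Ring1b is the product of Rnf2 and the enzyme of Polycomb repressive complex 1 (PRC1), a ubiquitin ligase that marks histone H2A at silenced genes and works with a partner ring finger protein such as Bmi1. By its title, the study is about recruitment of PRC1 by core binding factors. Setting the knockdowns against each other asks which transcripts separate cells short of CBFb from cells short of Ring1b, when both carry virus, hairpin, puromycin and phorbol ester.

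Values are log2 signals of 18193 genes, so a difference of 1 is 2-fold. Differences are CBFb_KD minus Ring1b_KD throughout, and a positive value means a higher signal in CBFb_KD. A gene is called when its adjusted p in limma is under 0.05. Arrays of one group correlated at 0.9947 to 0.9973 within CBFb_KD and 0.995 to 0.9965 within Ring1b_KD, and across the groups at 0.9866 to 0.992. The first principal component of the 6 arrays held 65.4% of the variance and separated the groups, and the second, with 10.9%, set CBFb_KD array 1 apart from arrays 2 and 3 of its group. The deposited signals of Ring1b_KD were more compressed, with an interquartile range of 3.158 to 3.233 against 3.298 to 3.385 in CBFb_KD. Quantile normalization removes that difference whatever its source, and array number limits the precision of each value. Of 36 measured megakaryocyte and platelet genes, 21 lay at or above the median gene of 7.418. Pf4, the platelet chemokine, stood at 14.73 in CBFb_KD and 14.28 in Ring1b_KD, and Itga2b, the platelet integrin alpha chain, at 12.25 and 11.38, whereas Nfe2, a factor of platelet release, stood at 5.38 and 5.39, below the low quartile of 5.945. Of the lymphoid list 4 of 20 genes and of the granulocyte and monocyte list 6 of 24 reached the median gene.

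Each hairpin left its own target low and the other target near its Control level. Cbfb read 9.32, 9.14 and 9.12 on the CBFb_KD arrays, 12.16, 12.26 and 12.28 on the Ring1b_KD arrays and 12.27, 12.33 and 12.50 on the Control arrays. It was 8.24-fold lower in CBFb_KD than in Ring1b_KD (difference -3.04, SE 0.091, limma adjusted p = 6.69e-08). Rnf2 read 10.55, 10.52 and 10.57 in CBFb_KD against 9.08, 8.96 and 8.92 in Ring1b_KD, with Control at 10.56, 10.68 and 10.72. It was 2.95-fold higher in CBFb_KD (1.56, SE 0.0864, limma adjusted p = 4.73e-06). Of its 5 probe sets 3 were called higher, by 1.56, 1.47 and 0.96, and the others differed by -0.11 and 0.10 without a call. With the mean of those 5 the difference was 0.80. Protein was not analysed here.

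Partners of the targeted proteins differed as well. Bmi1, the ring finger partner of Ring1b in PRC1, read 11.86, 12.06 and 12.06 in CBFb_KD and 11.09, 11.09 and 11.07 in Ring1b_KD, with Control at 11.92, 11.93 and 12.09. The Ring1b_KD arrays thus stood apart from both other groups, and the difference was 0.91 (SE 0.0843, limma adjusted p = 9.81e-05). Its other probe set gave 1.12. Runx1, the DNA-binding partner of CBFb, read 11.27, 11.93 and 12.04 in CBFb_KD, 10.33, 10.84 and 10.78 in Ring1b_KD and 10.38, 10.36 and 10.43 in Control. The CBFb_KD arrays were the highest of the 9, at a 2.13-fold difference from Ring1b_KD (1.09, SE 0.192, limma adjusted p = 0.00384). Of the 6 Runx1 probe sets 4 were called higher, by 0.96 to 1.17, and a further one differed by -0.27 without a call.

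**Figure D1:**
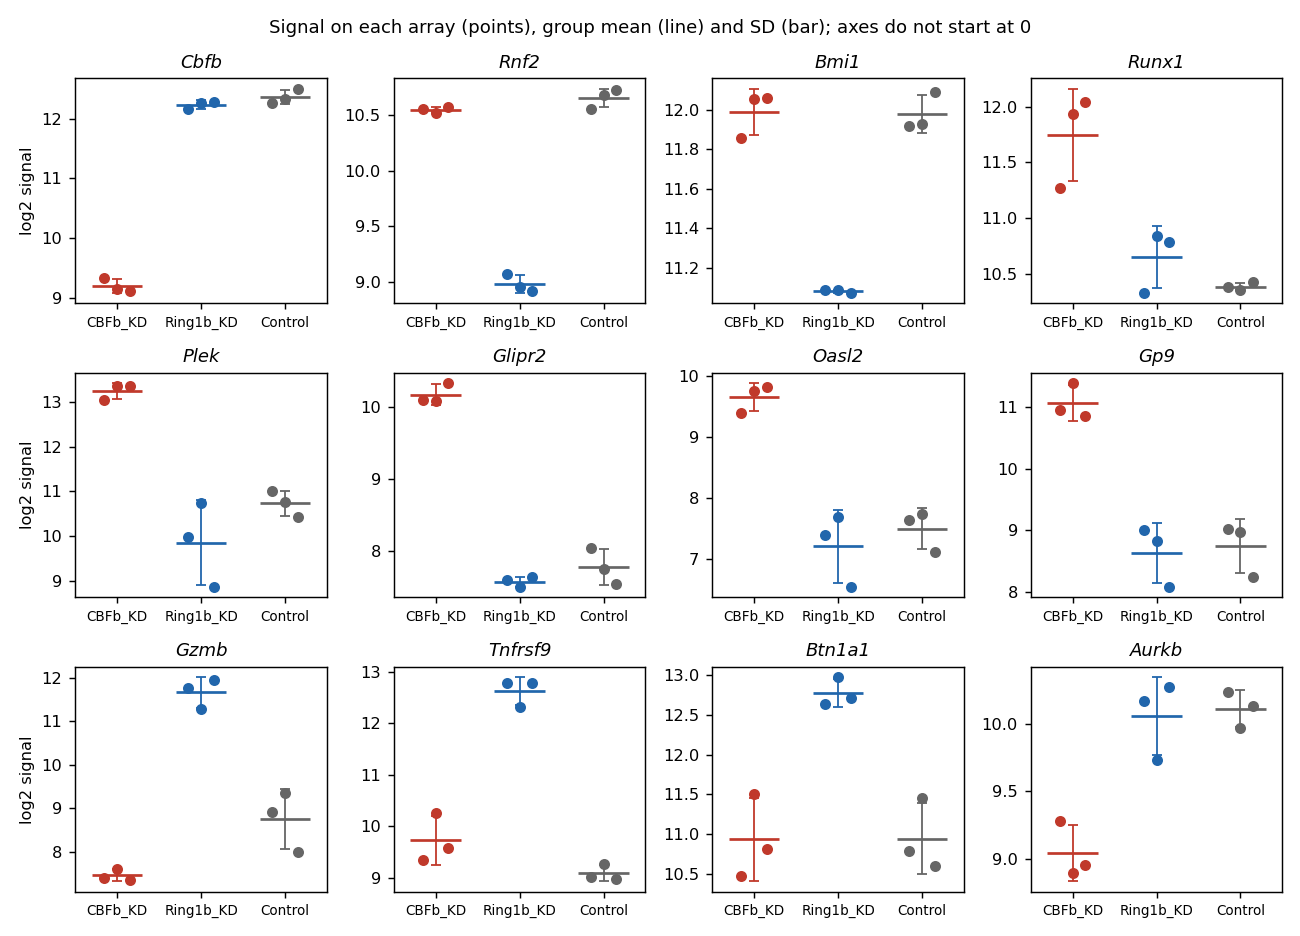
Log2 signal of 12 genes on each of the 9 arrays (points), with the group mean (line) and SD (bar, n = 3); the vertical axes do not start at 0. The CBFb_KD and Ring1b_KD arrays do not overlap for any of the 12, as for 33.8% of all genes. The rule that named the largest differences required this. Cbfb and Plek set CBFb_KD apart from both other groups, while Rnf2, Bmi1, Tnfrsf9 and Btn1a1 set Ring1b_KD apart.

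The knockdowns differed in 2623 of 18193 genes (14.4% of those tested), of which 1483 (8.15%) were higher and 1140 (6.27%) lower in CBFb_KD. The share called higher was thus 56.5%. It was 68.5% with the values as deposited and 85.9% with arrays centred on their medians, so the balance between directions rests on the scaling. Large differences leaned one way. At 2-fold or more 224 genes (1.23%) were called, of which 192 (1.06%) were higher and 32 (0.176%) lower in CBFb_KD, and at 4-fold or more 31 and 4. The arrays of one group lay wholly beyond those of the other for 33.8% of genes. Calls depended on signal, with 2.31% of the 4549 dimmest genes called against 28.6% of the 4548 brightest. Without CBFb_KD array 3 the count fell to 1434 (961 higher and 473 lower), and without CBFb_KD array 2 to 1674 (1081 and 593). Genes called lower numbered 683 without Ring1b_KD array 1 and 695 without Ring1b_KD array 3.

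For each gene the Control mean was set beside the knockdown means. Among the 192 genes at least 2-fold higher in CBFb_KD, the Control mean lay nearer to Ring1b_KD for 159 (82.8%). Among the 32 genes at least 2-fold lower it lay nearer to Ring1b_KD for 15 (46.9%), and over all tested genes for 47.7%. A large gap between the knockdown means leaves more room for Control to lie between them. It did so for 134 of the 192 (69.8%) and 22 of the 32 (68.8%), against 38.2% of all tested genes. Among all genes called higher and lower the shares were 64.3% and 65.4%. These are descriptions of means, with no test.

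**Figure D2:**
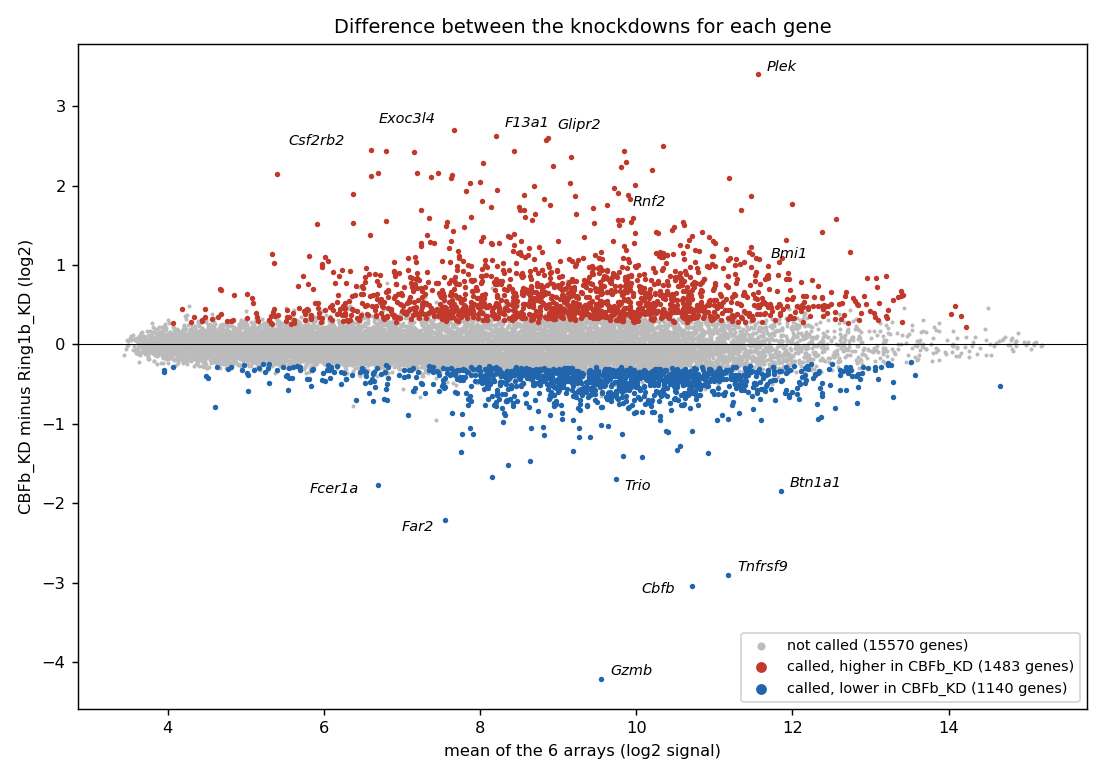
Difference between the knockdowns (log2, CBFb_KD minus Ring1b_KD, vertical axis) against the mean signal of the 6 arrays (log2, horizontal axis) for each of 18193 genes. The 1483 red genes were called higher and the 1140 blue genes lower in CBFb_KD; Plek has the largest positive and Gzmb the largest negative difference among called genes.

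The largest difference upward was of Plek, which encodes pleckstrin, a major protein kinase C substrate of platelets. It read 13.05, 13.36 and 13.37 in CBFb_KD and 9.97, 10.74 and 8.85 in Ring1b_KD, a 10.6-fold difference (3.40, SE 0.348, limma adjusted p = 0.000171). Control arrays read 11.01, 10.75 and 10.44 and overlapped Ring1b_KD, and Ring1b_KD array 3 was the lowest of the 9. Its other probe sets gave 3.02 and 3.43. F13a1, the catalytic subunit of coagulation factor XIII, read 9.18, 9.83 and 9.51 in CBFb_KD against 7.03, 7.07 and 6.57 in Ring1b_KD (6.15-fold, adjusted p = 1.28e-05 by limma). Gp9, a subunit of the von Willebrand factor receptor of platelets, read 10.95, 11.39 and 10.86 against 9.01, 8.82 and 8.08 (5.4-fold, limma adjusted p = 7.96e-05). For F13a1 and Gp9 the Control means of 6.41 and 8.75 lay nearer to Ring1b_KD, so the CBFb_KD arrays were the ones that stood high.

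Other genes of this group belong to no platelet list. Glipr2, a Golgi-associated protein, read 10.10, 10.08 and 10.33 in CBFb_KD against 7.59, 7.5 and 7.63 in Ring1b_KD, with Control at 8.04, 7.75 and 7.54. Its arrays varied little within a group, and the 6.05-fold difference had an adjusted p of 2.77e-07 in limma. Exoc3l4, a relative of an exocyst subunit, was 6.5-fold higher (2.70), and Tent5c, a poly(A) polymerase, 5.94-fold (2.57). H1f2, a linker histone, read 11.60, 12.23 and 10.96 against 9.16, 9.34 and 8.79 (5.66-fold), although 1 of its 3 probe sets differed by -0.06 without a call. H2-T24, a nonclassical class I gene, was 5.4-fold higher (2.43), a value that is uncertain because class I genes are close in sequence. The growth factor receptor chain Csf2rb2 and its near-identical paralog Csf2rb, the beta chain shared by several myeloid cytokine receptors, were 5.46-fold and 4.59-fold higher, and the close sequences of the pair leave their separate values uncertain. Csf2rb read 10.94, 11.76 and 11.18 in CBFb_KD, 9.23, 9.28 and 8.79 in Ring1b_KD and 8.44, 8.41 and 7.0 in Control, so that Ring1b_KD lay between.

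The largest difference of all went the other way. Gzmb, which encodes granzyme B, a serine protease of cytotoxic granules, read 7.40, 7.61 and 7.35 in CBFb_KD and 11.75, 11.27 and 11.96 in Ring1b_KD. The 18.5-fold gap (-4.21, SE 0.156, limma adjusted p = 2.77e-07) opened on both sides of Control, which read 8.91, 9.35 and 8.0. Tnfrsf9, the costimulatory receptor 4-1BB, read 9.35, 10.26 and 9.58 in CBFb_KD and 12.78, 12.32 and 12.79 in Ring1b_KD (7.46-fold, limma adjusted p = 2.08e-05). Control, at 9.02, 9.27 and 8.98, was below both, so here Ring1b_KD stood high. One of the 3 Tnfrsf9 probe sets had a low signal (5.03) and gave 0.11 without a call, and the other gave -3.21.

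After Cbfb itself came genes of varied function. Btn1a1, a butyrophilin of the immunoglobulin superfamily, read 10.47, 11.51 and 10.82 in CBFb_KD against 12.64, 12.98 and 12.71 in Ring1b_KD, with Control (10.78, 11.45 and 10.60) overlapping CBFb_KD. Fcer1a, the alpha chain of the high-affinity IgE receptor, read 6.05, 5.71 and 5.67 against 8.28, 7.59 and 6.88 (3.42-fold, limma adjusted p = 0.00157), and Control overlapped CBFb_KD again. Trio, a guanine nucleotide exchange factor, was 3.24-fold lower in CBFb_KD, with 2 of its 6 probe sets called. Far2, a fatty acyl-CoA reductase, was 4.63-fold lower, Mtmr2, a lipid phosphatase, 2.86-fold, and Ripor1 2.66-fold. A further Ripor1 probe set gave -0.01 without a call. For Ripor1 the Control arrays (10.29, 10.31 and 10.22) lay between 9.27 to 9.52 in CBFb_KD and 10.77 to 10.81 in Ring1b_KD. Naf1, an assembly factor of box H/ACA ribonucleoproteins, read 8.12, 7.77 and 7.82 in CBFb_KD against 9.41, 9.29 and 9.40 in Ring1b_KD. There the Control mean lay at that of Ring1b_KD (both 9.37), the opposite of Tnfrsf9.

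Interferon response genes separated the groups more than any other list here by share of members called. Lists and members were chosen with earlier results of these data known, so that rank is no independent support. Of 36 measured, 27 (75%) were higher in CBFb_KD and 0 lower (limma, with 28 and 0 by unadjusted p under 0.05). Over all genes 8.15% were higher. The list's median difference was 0.65, against -0.02 over all genes. Oasl2, of the oligoadenylate synthetase family, read 9.39, 9.75 and 9.82 in CBFb_KD and 7.40, 7.69 and 6.54 in Ring1b_KD (5.43-fold, limma adjusted p = 0.000135). Irf7, the factor that amplifies type I interferon production, read 8.74, 9.0 and 8.92 against 7.76, 7.68 and 7.39 (2.42-fold). Ifitm3, a membrane protein that blocks viral entry, was 2.47-fold higher, and Eif2ak2, the double-stranded RNA kinase PKR, 1.92-fold. For Eif2ak2 the arrays read 8.75, 8.89 and 8.89 against 7.87, 7.90 and 7.93, and Control, at 8.54, 8.64 and 8.36, lay nearer to CBFb_KD. Ifit1, an RNA-binding effector, was 3.73-fold higher (10.38, 11.01 and 10.76 against 8.91, 9.13 and 8.41). Not all members differed, since Stat2 (-0.10), Rsad2 (-0.14), Oas2 (-0.10) and Usp18 (-0.39) were among the 9 without a call. The mean level over the list was 8.85 to 8.96 on the CBFb_KD arrays, 8.03 to 8.38 on the Ring1b_KD arrays and 8.12 to 8.35 in Control. Without 1 array the called members numbered 22 to 26, and 1 of the 26 without Ring1b_KD array 3 was lower in CBFb_KD.

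Promoters of these genes often carry the interferon-stimulated response element (ISRE), bound by interferon regulatory factors and searched on both strands as GAAA, any 2 bases and GAAA again. It was found in 50% of 32 promoters of the list (250 bases before to 50 after the start) and in 3.03% of 18109 promoters of all tested genes. Of promoters of genes called higher in CBFb_KD 4.16% held it, and of those called lower 2.49%. The following are shown because they are the first called members, by adjusted p, with a match. Sequences are from RefSeq, build GRCm38.p6, 5′ to 3′ on the gene's strand, with matches in capitals. The match of Eif2ak2 begins 18 bases after the start and those of Ifitm3 2 and 19 bases after it. Those of Ifit1, on the opposite strand, begin at -104 and -85 from it.
Eif2ak2 promoter, chr17:78882523-78882822, minus strand: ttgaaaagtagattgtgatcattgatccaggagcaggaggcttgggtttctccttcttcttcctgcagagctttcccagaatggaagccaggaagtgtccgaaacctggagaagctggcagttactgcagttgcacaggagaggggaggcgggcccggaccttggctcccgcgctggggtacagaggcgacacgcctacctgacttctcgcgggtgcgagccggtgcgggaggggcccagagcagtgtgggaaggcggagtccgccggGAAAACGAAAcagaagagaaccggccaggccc
Ifitm3 promoter, chr7:141010695-141010994, minus strand: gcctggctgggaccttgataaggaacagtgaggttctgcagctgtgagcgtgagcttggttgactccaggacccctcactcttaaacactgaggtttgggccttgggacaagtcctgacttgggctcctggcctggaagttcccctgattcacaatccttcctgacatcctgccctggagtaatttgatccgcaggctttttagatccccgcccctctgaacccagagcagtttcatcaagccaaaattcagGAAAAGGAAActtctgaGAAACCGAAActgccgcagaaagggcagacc
Ifit1 promoter, chr19:34640639-34640938, plus strand: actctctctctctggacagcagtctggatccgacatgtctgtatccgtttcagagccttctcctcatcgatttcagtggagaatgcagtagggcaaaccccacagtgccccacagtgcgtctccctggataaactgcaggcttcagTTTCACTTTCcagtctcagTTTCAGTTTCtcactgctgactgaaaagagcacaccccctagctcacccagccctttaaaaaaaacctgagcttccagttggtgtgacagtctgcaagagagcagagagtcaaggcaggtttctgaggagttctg

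Antigen presentation genes, part of which interferon also induces, had 5 of 18 members higher and 0 lower (limma; 9 and 1 by unadjusted p under 0.05). They were Psmb10 (0.85) and Psmb8 (0.58), catalytic subunits of the immunoproteasome, Erap1 (0.81), which trims peptides, Nlrc5 (0.64), the class I transactivator, and Tap2 (0.63), a peptide transporter. The Control means of Psmb10 (9.81) and Psmb8 (10.62) lay nearer to CBFb_KD (10.04 and 10.76) than to Ring1b_KD (9.19 and 10.18). The share called higher was 27.8%, against 8.15% of all genes. With median centring 8 members were higher.

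Megakaryocyte and platelet genes were called higher in CBFb_KD for 14 of 36 measured members (38.9%, against 8.15% of all genes) and lower for 0 (limma; 19 and 1 by unadjusted p under 0.05), with a median of 0.27. Treml1, a receptor of platelet alpha granules, read 9.71, 9.73 and 9.89 in CBFb_KD and 8.08, 8.14 and 7.86 in Ring1b_KD (3.37-fold, limma adjusted p = 8e-06). Gp5, which joins Gp9 in the von Willebrand factor receptor, read 9.49, 9.62 and 9.46 against 8.0, 7.98 and 7.67 (3.12-fold). In both, Control arrays overlapped those of Ring1b_KD. Receptors for platelet agonists followed, namely F2rl2 (1.55) and F2r (0.48) for thrombin, P2ry1 (1.16) for ADP and Clec1b (1.83) for podoplanin. Ppbp, a platelet chemokine, was 4.32-fold higher, Vwf, the von Willebrand factor, was at 1.13 and Itga2b at 0.87. The other 22 members had no call, Pf4 (0.46), Gp1bb (-0.17), Itgb3 (0.10), Selp (-0.06) and Nfe2 (0.00) among them. Leaving out 1 array gave 13 to 15 called members, 1 of which was lower without Ring1b_KD array 3. In a bulk sample, fewer cells of a stage and less RNA per cell cannot be told apart.

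**Figure D3:**
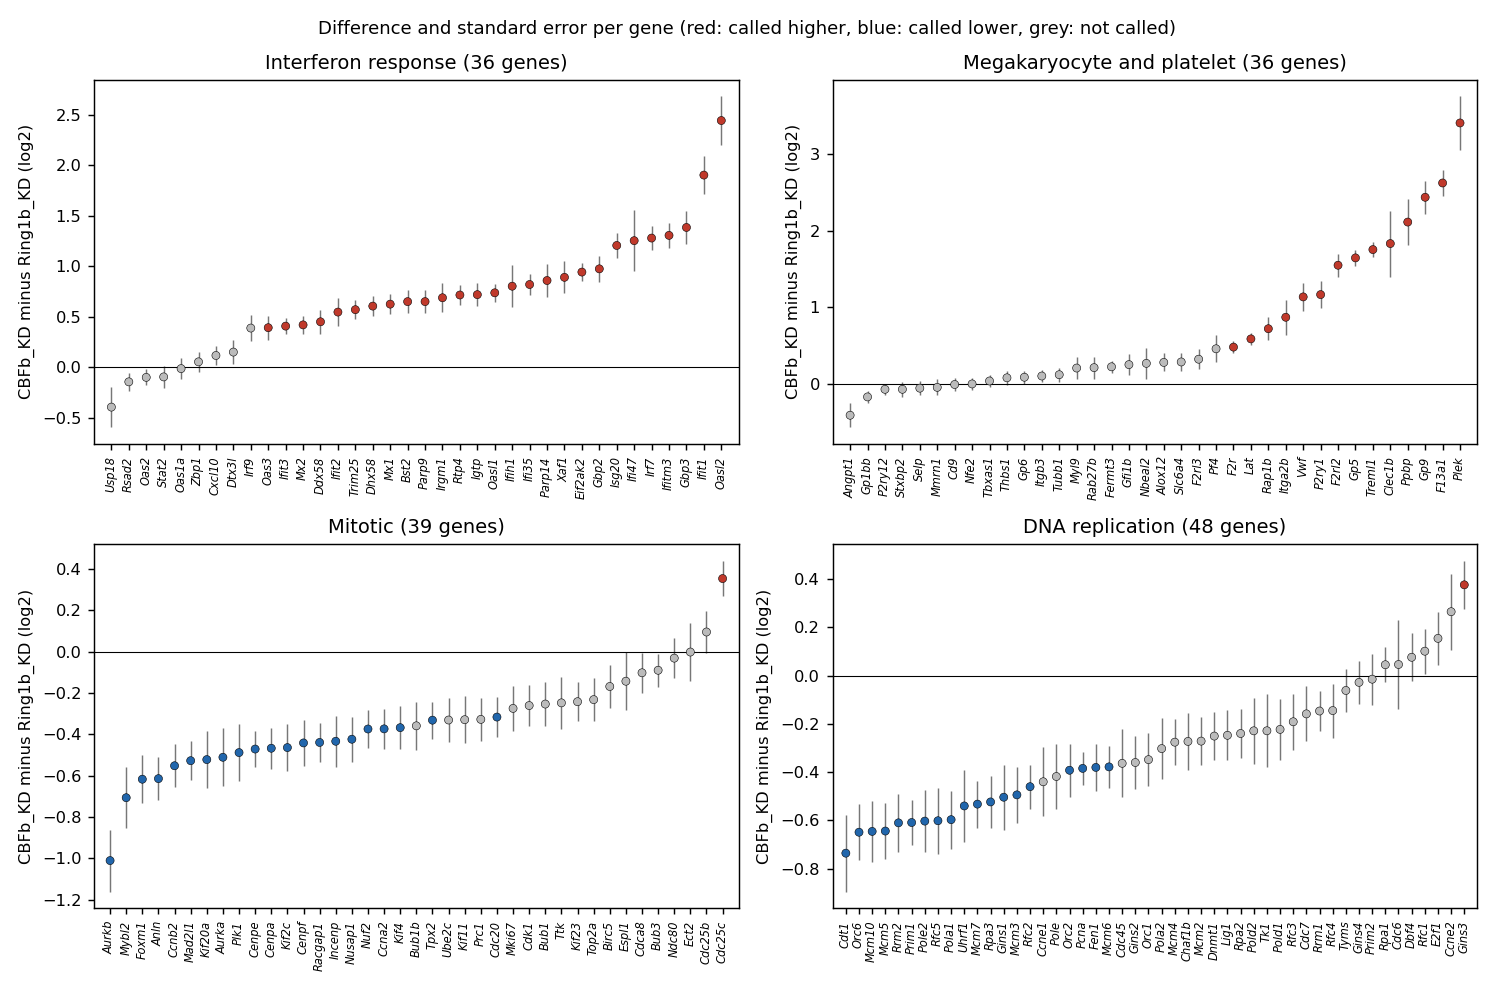
Difference between the knockdowns (log2, vertical axis) with its standard error for each measured gene of the interferon response, megakaryocyte and platelet, mitotic and DNA replication lists, ordered by difference. Called genes lie above 0 in the upper panels, and below 0 in the lower panels except Cdc25c and Gins3.

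Erythroid genes, whose programme shares GATA1 with megakaryocytes, were called higher in CBFb_KD for 11 of 25 members and lower for 0 (limma; 14 and 1 by unadjusted p under 0.05). Of all genes 8.15% were called higher, against 44% of this list. Rhag, a Rhesus-associated membrane channel, read 6.76, 7.04 and 5.63 in CBFb_KD and 4.37, 4.49 and 4.14 in Ring1b_KD (4.41-fold). Alas2, the erythroid enzyme that begins heme synthesis, was at 1.55, Ermap at 0.91, Trim10 at 0.82 and Ank1, the red cell ankyrin, at 0.68. The globin gene Hba-a1 (5.52 and 5.49) and the erythroid factor Klf1 (10.90 and 10.92) were not called. Hba-a1 lay below the low quartile of 5.945, where only 2.31% of genes were called, so its lack of a call says little. The mean level of the list was 8.85 to 9.0 in CBFb_KD, 8.48 to 8.55 in Ring1b_KD and 8.5 to 8.63 in Control, and its part in the platelet gene differences was not tested. Among heme enzymes Alad was lower in CBFb_KD (-0.60), a call lost without CBFb_KD array 3 or Ring1b_KD array 1 and with median centring.

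Mitotic genes were lower in CBFb_KD for 21 of 39 measured members (6.27% of all genes were) and higher for 1, with a median of -0.36. All 39 lay at or above the median gene, and of the 4548 brightest genes 636 were called lower. Aurkb, a kinase that acts in chromosome segregation and cytokinesis, read 9.28, 8.89 and 8.95 in CBFb_KD and 10.17, 9.73 and 10.27 in Ring1b_KD, a 2.02-fold difference (-1.01, SE 0.15, limma adjusted p = 0.00143). Control arrays (10.24, 9.96 and 10.13) overlapped Ring1b_KD. Foxm1, the transcription factor of the late cell cycle, was at -0.62, Anln, the anillin of the contractile ring, at -0.61 and Mad2l1, of the spindle checkpoint, at -0.53. Cdc25c, a phosphatase that activates the mitotic kinase, was the 1 member called higher (0.35), and it has no such call without CBFb_KD array 2 or 3 or Ring1b_KD array 2 or 3. Mki67 (-0.27) and Top2a (-0.23) were not called. The differences were modest and the count moved with the data used. It was 9 without CBFb_KD array 2, 8 without CBFb_KD array 3, 13 without Ring1b_KD array 1 and 9 without Ring1b_KD array 3, in each case counting both directions. It was 10 with the values as deposited and 6 with median centring. The list's median stayed below 0 in those settings, between -0.42 and -0.17 over all 15 alternatives.

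DNA replication genes resembled them in direction, with 19 of 48 lower (39.6%, against 6.27% of all genes), 1 higher and a median of -0.33. Of the 48, 46 lay at or above the median gene. Among the 4548 brightest genes 636 were called lower. Prim1, the primase catalytic subunit, read 10.44, 10.37 and 10.44 in CBFb_KD and 11.03, 10.89 and 11.15 in Ring1b_KD, with Control (10.69, 10.73 and 10.71) between. Orc6, of the origin recognition complex, was at -0.65 and Mcm5, of the replicative helicase, at -0.64. Mcm5 had no call with the mean of its 3 probe sets. Pcna, the polymerase clamp, read 13.41, 13.38 and 13.34 against 13.84, 13.67 and 13.79 (-0.38, limma adjusted p = 0.00399). Gins3, of the helicase-activating complex, was the member called higher (0.38), a call lost without CBFb_KD array 1 or 3 or Ring1b_KD array 2 or 3. The list had 13 members called without CBFb_KD array 2, 12 without CBFb_KD array 3 and 13 without Ring1b_KD array 3, and 11 with median centring.

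Cell cycle promoters carry known elements. The cell cycle homology region (CHR), bound by the MuvB complexes and searched as TTTGAA on both strands, was found in 77.1% of 35 promoters of the mitotic list and in 13.4% of all promoters. The CCAAT box, bound by NF-Y, was found in 77.1% of the mitotic and 37.4% of all promoters. For DNA replication genes the E2F element, searched as TTTNNCGC on both strands, was found in 34% of 50 promoters against 6.98% of all. Among genes called lower in CBFb_KD 14.7% of promoters held the CHR and 10.6% the E2F element, and among those called higher 11.4% and 6.1%. The RUNX element, searched as TGTGGT on both strands, was in 12.9% of promoters of genes called higher, 12.2% of those called lower and 13.7% of all. A match is a description of letters and not evidence of binding. The first 3 called mitotic genes by adjusted p with a CHR are shown, with its letters in capitals. The match nearest the start begins 21 bases after it in Anln (which has a match on each strand within a few bases), 4 bases after it in Ccnb2, a mitotic B-type cyclin (-0.55), and 5 bases after it in Racgap1, of the cytokinesis machinery (-0.44).
Anln promoter, chr9:22389157-22389456, minus strand: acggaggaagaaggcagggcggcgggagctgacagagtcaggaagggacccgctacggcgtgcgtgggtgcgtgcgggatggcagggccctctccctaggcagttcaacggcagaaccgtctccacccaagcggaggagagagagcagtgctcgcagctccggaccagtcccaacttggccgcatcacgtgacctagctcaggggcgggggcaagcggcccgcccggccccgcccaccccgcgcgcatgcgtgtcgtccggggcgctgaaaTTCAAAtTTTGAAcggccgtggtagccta
Ccnb2 promoter, chr9:70421505-70421804, minus strand: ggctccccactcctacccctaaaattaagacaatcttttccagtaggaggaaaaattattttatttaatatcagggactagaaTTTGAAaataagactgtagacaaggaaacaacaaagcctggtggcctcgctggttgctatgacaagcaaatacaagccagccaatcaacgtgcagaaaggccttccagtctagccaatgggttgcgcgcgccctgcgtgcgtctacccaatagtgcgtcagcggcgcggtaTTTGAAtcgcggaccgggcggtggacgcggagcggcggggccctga
Racgap1 promoter, chr15:99651607-99651906, minus strand: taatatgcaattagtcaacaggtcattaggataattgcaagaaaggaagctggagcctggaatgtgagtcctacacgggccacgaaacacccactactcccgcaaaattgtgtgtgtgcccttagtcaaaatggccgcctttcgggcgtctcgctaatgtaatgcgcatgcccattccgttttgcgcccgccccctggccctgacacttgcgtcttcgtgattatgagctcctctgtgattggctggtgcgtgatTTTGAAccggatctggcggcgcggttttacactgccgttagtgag

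**Figure D4:**
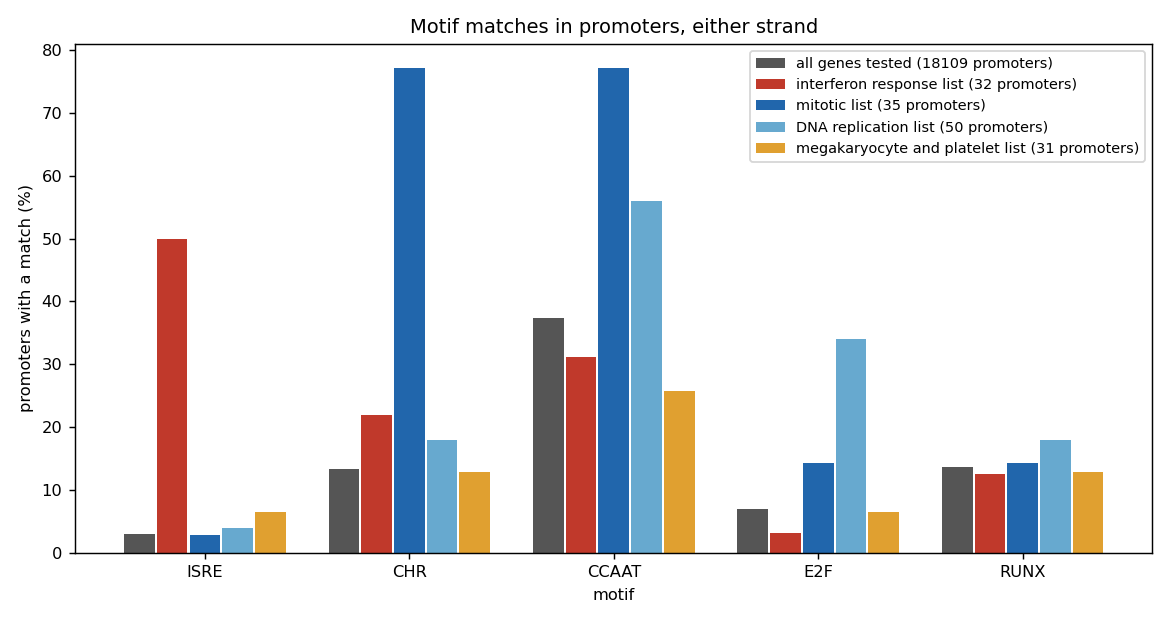
Share of promoters (percent, vertical axis) with at least 1 match to each of 5 motifs, for all genes tested and for 4 gene lists. The ISRE stands out in the interferon response list (50% against 3.03%), the CHR and CCAAT in the mitotic list (77.1% each) and E2F in the DNA replication list (34%), while the RUNX element lies between 12.5% and 18% in each set.

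Regulators of blood cell identity were mostly higher in CBFb_KD where called. Of 27 hematopoietic transcription factors 8 were higher and 2 lower (11 and 0 with median centring). The main fit thus called 37%, against 14.4% of all genes. Lyl1, a basic helix-loop-helix factor, read 11.64, 11.30 and 11.68 in CBFb_KD, 10.34, 10.12 and 9.93 in Ring1b_KD and 9.54, 9.21 and 9.21 in Control, so that the CBFb_KD arrays were highest and the Control arrays lowest (1.41, SE 0.128, limma adjusted p = 8.68e-05). Gata2, a stem and progenitor factor, read 12.35, 12.33 and 12.45 against 11.49, 11.74 and 11.41, and Mllt3 was at 0.92. For both, Control (means 12.15 and 9.46) lay nearer to CBFb_KD. Zfpm1, the GATA1 cofactor FOG1, was at 0.90, and the Ikaros family genes Ikzf2 (-0.61) and Ikzf1 (-0.45) were the members called lower. Gata1 itself stood at 11.83 and 11.69 without a call.

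Polycomb genes other than the targeted one differed in both directions. In PRC2, Jarid2, an accessory subunit, read 10.96, 10.97 and 10.95 in CBFb_KD and 9.84, 10.12 and 9.54 in Ring1b_KD (2.18-fold, limma adjusted p = 0.000382), with Control at 10.35, 10.38 and 10.08, overlapping Ring1b_KD. Its other probe sets gave 1.30 and 1.51. Ezh2, the histone methyltransferase, was lower in CBFb_KD (-0.79, limma adjusted p = 0.00254). Of 11 PRC2 genes 2 were called higher and 3 lower. Of 20 PRC1 genes 2 were higher, Bmi1 and the targeted Rnf2, and 3 lower. The shares called were 45.5% and 25%, against 14.4% of all genes. The weaker calls did not last, since Suz12 (-0.40), Mtf2 (-0.44) and Phc2 (-0.41) each lost theirs in 6 to 8 of 15 alternatives and Phc1 (-0.44) without CBFb_KD array 3 and with median centring. Leaving out any 1 of the 6 arrays left 2 or 3 called PRC2 genes. The called PRC1 genes numbered 3 without CBFb_KD array 2, 2 without CBFb_KD array 3 and 3 without Ring1b_KD array 1.

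Brakes on the cell cycle and stress genes were next. Of 29 CDK inhibitors and p53 targets 6 were higher and 3 lower in CBFb_KD, and 10 and 2 with median centring. The main fit thus called 31%, against 14.4% of all genes. Differences over the list ran from -0.77 to 1.4, and the members of it named next are all among the higher ones. Cdkn2b, an inhibitor of the cyclin D kinases, read 8.97, 9.11 and 9.31 against 7.91, 7.78 and 7.54 (2.61-fold), and its neighbour Cdkn2a was at 0.76. Ei24, a p53-induced membrane protein, read 10.81, 10.60 and 10.67 against 9.36, 9.32 and 9.19, and Control (10.76, 10.74 and 10.72) overlapped CBFb_KD, so that Ring1b_KD stood low. Trp53inp1 was at 1.21. Mxd1, a MAX partner that opposes MYC, read 10.37, 11.77 and 10.60 in CBFb_KD and 8.38, 9.02 and 8.66 in Ring1b_KD (4.69-fold), while Mxd4, of the same family, was lower (-0.57). The other Mxd1 probe sets gave 1.64 with a call and 1.00 without. Myc was at -0.28, and the list of MYC, MAX and MXD genes had 1 higher and 2 lower of 11 (27.3% called). The calls of Mxd4 and Myc were lost in 6 and 8 of 15 alternatives. Of 28 phorbol early response genes 3 were higher and 2 lower, a share of 17.9% called that is near the 14.4% of all genes. Phlda1, a pleckstrin homology-like protein, was 3.92-fold higher, and Junb (0.52) and Ier5 (0.64) were called too, Junb not without CBFb_KD array 2 or 3 or Ring1b_KD array 1 or 3, and Ier5 not with the mean of its probe sets. The early response list had 3 called members without CBFb_KD array 2 or Ring1b_KD array 2, and 2 without CBFb_KD array 3 or Ring1b_KD array 3.

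ER stress and amino acid response genes were higher for 11 of 27 members and lower for 0 (limma; 16 and 2 by unadjusted p under 0.05), with a median of 0.28. The share called higher was 40.7%, against 8.15% of all genes. Atf6, a sensor of unfolded protein, was at 1.08, Trib3 at 1.01, Ddit3, the factor CHOP, at 0.85 and Hspa5, the chaperone BiP, at 0.84. One further Hspa5 probe set opposed the chosen one (-0.43, limma adjusted p = 0.0218 over all probe sets). Without CBFb_KD array 3 the list had 5 called members, and without Ring1b_KD array 1 or 3 it had 7. It had 18 with median centring.

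Surface and signalling genes held large differences in both directions. Of 35 adhesion and actomyosin genes 10 were higher and 2 lower, and 6 were higher without CBFb_KD array 3, Ring1b_KD array 1 or Ring1b_KD array 3. With all 6 arrays 34.3% of the list was called, against 14.4% of all genes. Itgb2, the leukocyte integrin beta chain, read 12.12, 12.55 and 12.02 in CBFb_KD against 10.28, 10.07 and 10.06 in Ring1b_KD (4.27-fold, limma adjusted p = 1.13e-05). Capg, an actin-capping protein, was at 1.87, Lgals1, galectin-1, at 1.76 and Itga4 at 0.77, while Tagln2 was lower (-0.61). Of 29 cytokine receptor and signalling genes 5 were higher, among them Cish (1.06), a STAT5-induced inhibitor, and 3 lower, among them Kit (-0.74), the stem cell factor receptor, and Ifngr1 (-0.85), a chain of the interferon gamma receptor. These counts were 9 and 3 with the values as deposited and 11 and 1 with median centring, and 1 gene was lower without CBFb_KD array 3 or Ring1b_KD array 1. In the main fit 27.6% of the cytokine list was called. Ifngr1 read 9.32, 10.37 and 9.74 in CBFb_KD against 10.69, 10.64 and 10.64 in Ring1b_KD. Of 22 TNF receptor and NF-kB genes 5 were higher, with Ltb (0.90) and the inhibitor Nfkbia (0.49), and 3 lower, with Tnfrsf18 (-0.76) beside Tnfrsf9. That was 36.4% called. The other Nfkbia probe sets gave 0.60 with a call and 0.46, 0.26 and 0.11 without.

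In lists of growth and energy supply most called genes were lower in CBFb_KD, by small amounts, but that lean was reduced or lost with median centring. Counts of lower and higher calls were 8 and 1 of 40 nucleolar ribosome assembly genes, 8 and 1 of 42 mitochondrial ribosomal proteins, 8 and 1 of 31 spliceosome and hnRNP genes, 7 and 1 of 31 proteasome genes and 6 and 0 of 45 oxidative phosphorylation genes (12 and 1 with limma's unadjusted p under 0.05). The shares called in either direction were 22.5%, 21.4%, 29%, 25.8% and 13.3%, against 14.4% of all genes and 28.6% of the 4548 brightest, and nothing particular to these lists is read from them. The medians ran from -0.24 to -0.08. With median centring the lower and higher calls were 4 and 3 nucleolar, 1 and 1 mitochondrial ribosomal, 0 and 2 spliceosome, 4 and 4 proteasome and 2 and 2 oxidative phosphorylation genes, and the medians of the nucleolar, proteasome and oxidative phosphorylation lists were positive (0.02, 0.04 and 0.06). Each of these counts also fell by over 1.5 times without CBFb_KD array 2 or 3, for instance to 3 and 2 called spliceosome genes and to 2 and 1 oxidative phosphorylation genes. Without Ring1b_KD array 1 the called members were 5 nucleolar, 4 mitochondrial ribosomal, 5 proteasome and 1 oxidative phosphorylation genes, and without Ring1b_KD array 3 they were 5 nucleolar, 3 spliceosome and 1 oxidative phosphorylation genes. Without Ring1b_KD array 2 the spliceosome count was 3, and without CBFb_KD array 1 that of mitochondrial ribosomal proteins was 14.

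Single members stood out from these lists. Tomm22, through which proteins enter mitochondria, read 10.42, 10.18 and 10.12 in CBFb_KD and 11.55, 11.49 and 11.75 in Ring1b_KD (2.57-fold, limma adjusted p = 3.74e-05), with Control (11.61, 11.48 and 11.47) like Ring1b_KD. Grpel1, a cofactor of the mitochondrial import motor, followed the same pattern (-1.10). Mrpl18, of the large mitochondrial ribosomal subunit, went the other way, at 10.04, 9.97 and 10.02 against 8.65, 8.51 and 8.79 (2.56-fold), with Control at 10.27, 10.44 and 10.45, so that Ring1b_KD stood low. The proteasome subunits Psmd1 (-0.87) and Psma1 (-0.81) had the largest differences of their list. Of 28 cytoplasmic ribosomal proteins 1 was called, Rpl7a (-0.52), and 2 were without CBFb_KD array 1. Of 19 tRNA synthetases 0 were called (limma; 4 higher and 2 lower by unadjusted p under 0.05), and 5 were with median centring. Among lysosomal genes Ctsl, a cathepsin protease, was 2.98-fold higher (13.22, 13.66 and 13.18 against 11.71, 12.02 and 11.60), and the list had 5 higher and 1 lower of 28. Of the lysosomal list 21.4% was called, against 14.4% of all genes. Its higher calls were 3 without CBFb_KD array 2, Ring1b_KD array 2 or Ring1b_KD array 3, and 9 with median centring. Of 26 cholesterol and fatty acid synthesis genes 1 was called, Srebf1 (0.84), a regulator of lipid synthesis, against 7 without Ring1b_KD array 3. Glycolysis and pentose phosphate genes had 3 higher and 3 lower of 17 (35.3% called), and 3 called in all without CBFb_KD array 3. That even split became 4 and 1 with the values as deposited and 5 and 0 with median centring.

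**Figure D5:**
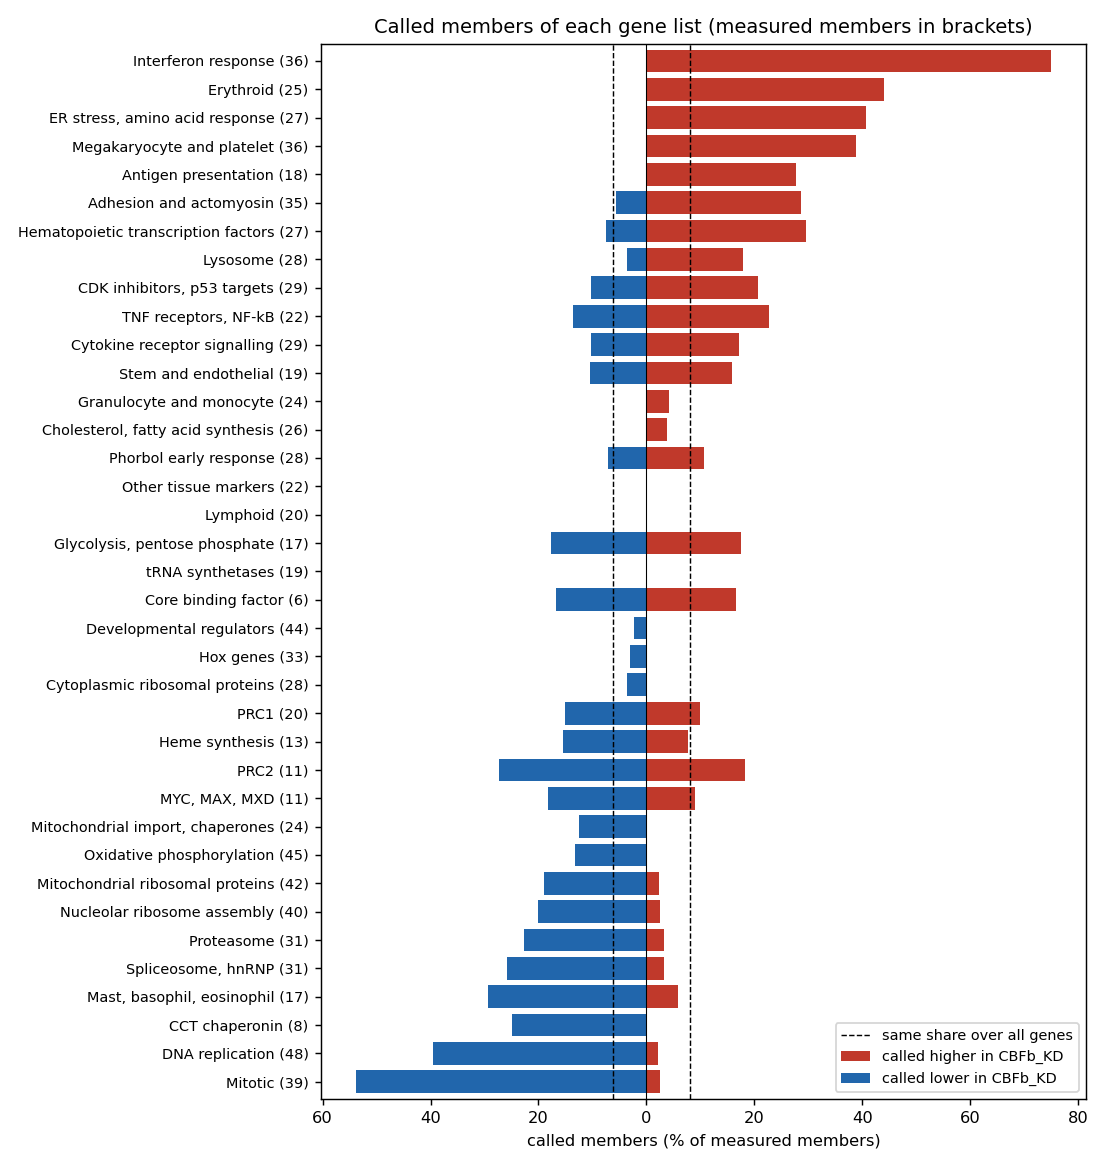
Members of 37 gene lists called higher (red, to the right) or lower (blue, to the left) in CBFb_KD, as a percent of the measured members given in brackets, with dashed lines at the same shares over all genes (8.15% and 6.27%). Interferon response genes have the largest share to the right (75%) and mitotic genes the largest to the left.

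Markers of other lineages differed in their share of calls. It was 35.3% for the mast cell, basophil and eosinophil list and 26.3% for the stem and endothelial list. For the granulocyte and monocyte list it was 4.17%, and over all genes 14.4%. The mast cell, basophil and eosinophil list had 5 of 17 members lower in CBFb_KD, Gzmb, Fcer1a, Kit, Mcpt1 (-0.68) and Ms4a2 (-0.43), and 1 higher, Cma1 (1.07). Its mean level was 6.96 to 7.04 in CBFb_KD, 7.31 to 7.5 in Ring1b_KD and 6.98 to 7.27 in Control, and whether such cells contribute was not tested. The list's median difference was 0.03 with 9 of 17 members positive, so the gap in the mean rests on a few members, Gzmb and Fcer1a above all. Of 24 granulocyte and monocyte genes Prtn3, a neutrophil protease, was called (1.59), at a mean of 8.15 against 6.56, while Mpo (6.27 and 6.32) and Elane (7.21 and 7.29) were not. Among stem and endothelial genes Tie1 (1.43), Slamf1 (1.17) and Eng (0.59) were higher, and Kit and Icam2 (-0.43) lower. Of 20 lymphoid and 22 epithelial, mesenchymal and other tissue markers 0 were called (limma; 3 and 2 lower by unadjusted p under 0.05). Hox genes and developmental regulators, known as targets of Polycomb silencing, had mean levels of 5.82 to 5.86 over 33 genes and 5.76 to 5.78 over 44 in the knockdowns, with 6 and 5 of them at or above the median gene. The shares called were 3.03% and 2.27%, below the 14.4% of all genes. Hoxa11 (-0.42) and Hand1 (-0.37) were the called members, both lower in CBFb_KD. Hoxa11 had a low signal (5.38 and 5.80, below the low quartile of 5.945). Hand1 was not called without CBFb_KD array 2 or with the mean of its probe sets. Without CBFb_KD array 1 or Ring1b_KD array 3 a further Hox gene was called.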

How the data were processed

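Transcripts of L8057 cells were hybridised to 9 one-colour arrays (45101 probe sets each), and the 3 CBFb_KD and 3 Ring1b_KD arrays were compared. The values deposited by the authors are log2 values, a scale inferred from their span. How they were background-corrected, normalized and summarised is not given in the sources used here. Per the labels' protocols, biotin-labelled RNA was transcribed from oligo-dT primed cDNA, so transcript parts without a probe go unmeasured. Array medians differed by 0.137, over the limit of 0.1, so all 9 arrays were quantile normalized. The 64 control probe sets were left out. In GEO's platform annotation 34945 probe sets carried 1 symbol, 932 carried several and 9160 did not appear. Identifiers matched RefSeq (GRCm38.p6) for 34741, with 0 symbols changed. Each gene took the brightest of its single-symbol probe sets, by the mean over 9 arrays.

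Group means were fitted to the 6 arrays with limma 3.58.1 (lmFit, eBayes with trend, R 4.3.3, a prior of 6.684 degrees of freedom), with p-values two-sided and Benjamini-Hochberg adjusted over 18193 genes. On simulated data of that size the fit recovered 95% of 100 genes changed by 1 and 100% of 100 changed by 2 (log2), with 6 false calls. The simulated noise was independent for each gene and array, with no effect shared across an array. These figures check the fit and are not error rates of the real comparison. Gene lists (37, with 972 of 1057 symbols measured) are described by counts. Members and lists were chosen with earlier results of these data known. Named are Cbfb, Runx1, Rnf2, Bmi1, the 10 largest called differences per direction without overlap whose brighter group reached the median gene (unnamed gene models passed over), and at most 4 called genes of each list, lowest adjusted p first. Others named, including the Ifit1, Ccnb2 and Racgap1 promoters, were chosen after their values were seen. Promoters were matched by symbol for 14452 genes. Alternatives covered scaling, the samples fitted, a replicate block, the variance model, the probe set rule, a filter on dim genes and leaving out each array.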

Additional observations from a re-analysis of the deposited data

How the results depend on the processing

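Of 122 named genes, all called, 93 kept their call in all 15 alternatives, 29 lost it in 1 or more, and 0 changed sign. Cbfb (-3.11 to -2.87) and Rnf2 (0.80 to 1.74) kept theirs. Named genes were picked mainly for a low adjusted p or a large difference, so they do not stand for all called genes. Of the 2623 called genes, 1399 were also called without CBFb_KD array 3 and 1612 without CBFb_KD array 2. With arrays centred on their medians 2385 genes were higher and 391 lower, against 1483 and 1140, and 6 mitotic and 11 DNA replication genes were called. With the values as deposited 10 mitotic genes were. Leaving out each array in turn gave 1434 to 2424 genes differing, 961 to 1271 higher, 473 to 1153 lower, 8 to 26 mitotic and 12 to 24 DNA replication genes called. The cause of these shifts was not tested, though fewer arrays entered the latter. Counts of all called and of 2-fold genes stayed within 1.5 times under the other alternatives, and interferon response and platelet gene counts under all 15. Same-numbered arrays of the knockdowns deviated together by correlations of 0.05, 0.10 and -0.04, and differently numbered ones by -0.17 to 0.11. For 13.5% of genes the same number was highest in all 3 groups. Whether the numbers pair the arrays was not tested. With the replicate number as a block 2941 genes were called, 1632 higher and 1309 lower, 2526 of them shared. Of the 4549 dimmest genes 2.31% were called, and whether fewer of them differ or fewer could be detected was not tested.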

Other observations

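Some probe sets outside the gene comparison were called too. Over all 45037 non-control probe sets 4212 were called, 2439 of them higher in CBFb_KD, and nothing particular to the sets below is read from their counts. Of 9160 probe sets that the annotation does not list, 314 were called by limma over all probe sets, 127 of them higher in CBFb_KD, and of 932 with several symbols 111 were called, 46 of them higher.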
